A study of Mus musculus with 6 samples.

Results

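The genes described here make, import and phosphorylate creatine, or pump calcium into the endoplasmic reticulum, in the inguinal white adipose tissue (iWAT) of mice. They were chosen by name, with earlier results of these data known. The set holds Gatm and Gamt (creatine synthesis), Slc6a8 (creatine uptake), Ckb and Alpl (phosphorylation and dephosphorylation of creatine), and Atp2a2. Atp2a2 encodes the calcium pump SERCA2. All 6 are among the 16627 genes of the deposited count table, and all 6 passed the filter on low counts that left 16366 genes for testing. RNA was sequenced in 3 libraries from mice whose Celf1 gene, which encodes an RNA-binding protein, was knocked out in adipocytes only (Celf1 AKO). The other 3 libraries came from littermate controls that carry the floxed Celf1 alleles (fl/fl, called Flox control). Both groups had been kept at 4 °C for 6 hours, so there is no group at room temperature, and every difference below is between genotypes in the cold. The labels give neither the Cre driver nor the age or sex of the mice. They also do not state that each library is a separate mouse, and p-values therefore cover only the spread among these 3 and 3 libraries, which may be technical.

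Thermogenic fat makes heat mainly by letting protons leak through UCP1 in the inner mitochondrial membrane, but it also has routes that do not need UCP1. In creatine cycling, creatine is phosphorylated by a creatine kinase and the phosphocreatine is hydrolysed again, so that ATP is spent with no work done. In calcium cycling, SERCA2 pumps calcium into the endoplasmic reticulum at the cost of ATP while calcium leaks back through release channels. Beige adipocytes in iWAT are a cell type in which both cycles have been described. The comparison therefore asks how the genes of these routes stood in Celf1 AKO tissue, in which the study looked at beiging of iWAT.

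Library totals ran from 54835348 to 64979443 counts, and 1 CPM (counts scaled to library size and TMM factors) stood for 54.9 to 67.8 counts. Celf1 itself was at 52.5, 49.8 and 63.0 CPM in the Celf1 AKO libraries and at 126, 114 and 144 CPM in the Flox controls. Celf1 was thus at 43.1% of the control mean, with no overlap between groups. Ucp1 was at 79.5, 4.86 and 34.0 CPM in Celf1 AKO and at 461, 567 and 495 CPM in Flox control. The edgeR test described below called neither gene (adjusted p = 0.122 for Celf1 and 0.246 for Ucp1), so a gene it did not call may still differ. Celf1 AKO replicate 3 stood nearer to the controls than to its own group: its log2 CPM correlated at 0.983 to 0.986 with the Flox libraries and at 0.976 and 0.978 with the other Celf1 AKO libraries. Values without it are given where it matters.

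Among the 6 genes, Gatm showed the largest difference, at 2.36 times the control mean in Celf1 AKO, and Atp2a2 was the only one with a lower mean, at 79.1% of control. Gamt, Ckb, Slc6a8 and Alpl had higher means in Celf1 AKO, by 1.15 to 1.37 times, and their groups overlapped. No gene of the 6 passed the test of edgeR (quasi-likelihood, Benjamini-Hochberg adjusted p under 0.05 over all tested genes), which called 2 genes in all, both higher, or 0.0122% of those tested. At an unadjusted p under 0.05, 3 of the 6 were counted (Gatm and Ckb higher, Atp2a2 lower), against 12.9% of all tested genes (6.75% higher and 6.17% lower). DESeq2 called 1 of the 6, Gatm, where it called 3.04% of its genes (2.12% higher and 0.926% lower), and edgeR without Celf1 AKO replicate 3 called the same gene, where it called 3.19% (1.43% higher and 1.76% lower). The groups did not overlap in CPM for Gatm, on the higher side with 7.81% of tested genes, and for Atp2a2, on the lower side with 9.51%. The median log2 fold change of the 6 was 0.33, against −0.02 for all tested genes. It ran from 0.20 (without Flox control replicate 3) to 0.42 (without Flox control replicate 2) with single libraries left out.

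**Figure D1:**
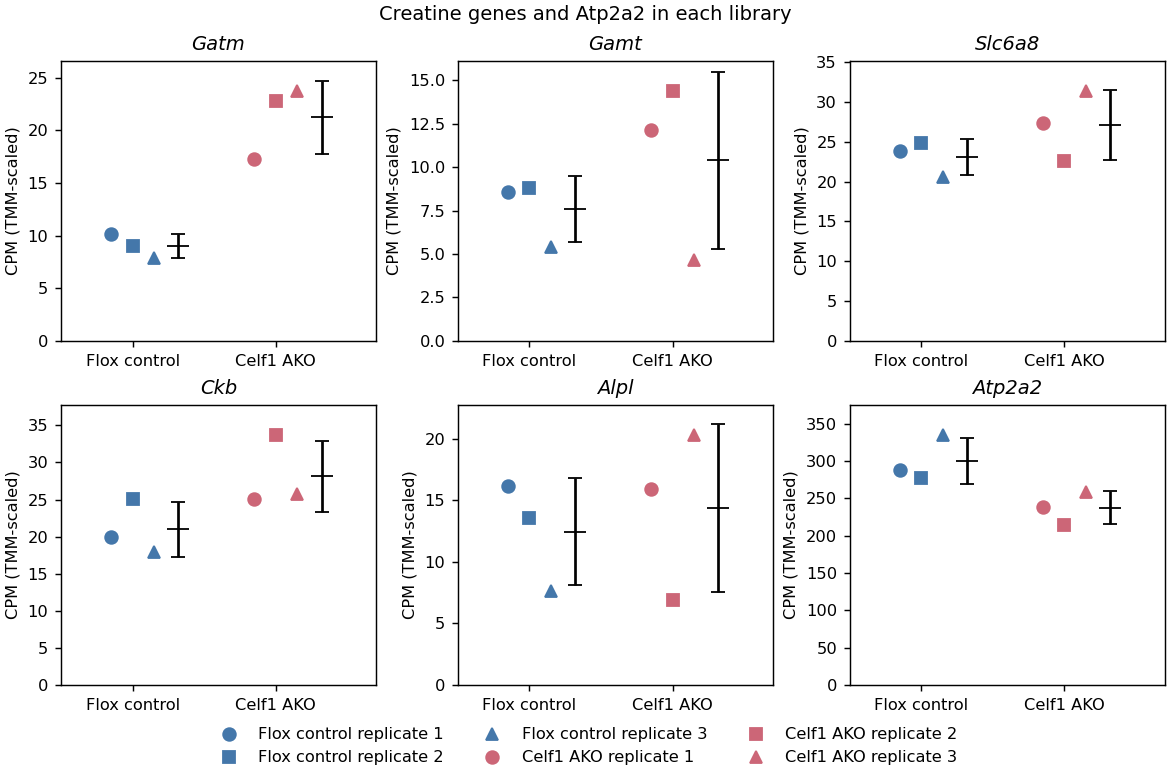
CPM (TMM-scaled, linear axis from 0) of each of the 6 genes in the 3 Flox control libraries (blue) and the 3 Celf1 AKO libraries (red); marker shape gives the replicate number, and the bars are the mean and SD of 3 libraries. The Gatm points of the groups are apart, Atp2a2 points are apart in the other direction, and the points of the other genes overlap.

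CELF1 binds GU-rich letters in the 3′ untranslated regions (3′UTRs) of messenger RNAs, so these regions were searched for such letters on the sense strand, in the longest annotated 3′UTR of each gene (GENCODE M21, GRCm38). The letters TGTTTGT occurred in 29.0% of 13981 tested genes with a 3′UTR, and the longer TGTTTGTTTGT, which holds the shorter one, in 4.19%. Neither was found in any of the 6 genes, whose 3′UTRs measured 166 (Gamt) to 1402 bases (Slc6a8). For 3′UTRs of like length (from 80% of the gene's own length up to the same ratio above it), the share with TGTTTGT was 21.7% for Gatm and 18.5% for Atp2a2, so most 3′UTRs of these lengths lack it. The dinucleotide repeat TGTGTGTG, a search added after the data were seen, was in 19.9% of all 3′UTRs and in those of Slc6a8 and Atp2a2. The longest stretch of each gene is shown, as no other gene of the set holds these letters, with the repeat in capitals. The Slc6a8 stretch lies at chrX:73681690-73681719 on the plus strand, and the Atp2a2 stretch at chr5:122456777-122456806 on the minus strand (GRCm38, letters 5′ to 3′ on the gene's strand).
Slc6a8: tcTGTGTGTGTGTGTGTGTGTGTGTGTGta
Atp2a2: taggaaatgaaTGTGTGTGgtttttaaaag
The Slc6a8 repeat runs over 26 bases, and a second repeat of 8 bases follows it at positions 620 to 627 of that 3′UTR. Repeats of this kind were in 18.9% of 3′UTRs of the length of Slc6a8 and in 11.5% of those of the length of Atp2a2. The log2 fold changes of Slc6a8 (0.23, groups overlapping) and Atp2a2 (−0.34) had opposite signs, and neither passed the test. A match is a description of the letters and not of binding.

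Gatm (ENSMUSG00000027199, chr2:122594467-122611303, minus strand) encodes glycine amidinotransferase, which makes guanidinoacetate from arginine and glycine in the first step of creatine synthesis. Its level was 17.3, 22.8 and 23.7 CPM in the Celf1 AKO libraries and 10.2, 9.0 and 7.88 CPM in the Flox controls, or 951 to 1545 counts against 515 to 610. Every Celf1 AKO library was above every control, and the lowest of them was still well clear of the highest control. The means were 21.3 ± 3.47 and 9.01 ± 1.14 CPM (SD, n = 3 each). The log2 fold change was 1.24 (SE 0.18), or 2.36-fold with a 95% interval of 1.78 to 3.14. The adjusted p was 0.209 by edgeR, with the 10th smallest p of all tested genes, and 5.70e-07 by DESeq2. The exact two-sided permutation test gave 0.1, the smallest p that 3 against 3 libraries allow. Without Celf1 AKO replicate 3, the log2 fold change was 1.15 with an adjusted p of 0.0312 by edgeR.

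Gamt (ENSMUSG00000020150, chr10:80258151-80261012, minus strand) encodes guanidinoacetate N-methyltransferase, which methylates guanidinoacetate to creatine in the last step. Its level was 12.2, 14.4 and 4.67 CPM in Celf1 AKO and 8.59, 8.83 and 5.43 CPM in Flox control. The first 2 Celf1 AKO libraries were above all controls and replicate 3 was below all of them. The log2 fold change was 0.45 (SE 0.41, edgeR adjusted p = 0.668), with a 95% interval of −0.50 to 1.40. Without Celf1 AKO replicate 3 it was 0.80 with an adjusted p of 0.107 by edgeR. Celf1 AKO replicate 3 had the highest Gatm and the lowest Gamt of the 6 libraries, in CPM. The ratio of Gatm to Gamt in FPKM (fragments per kilobase of gene and per unit of library depth, which allows levels of 2 genes to be compared) was 0.589, 0.654 and 2.10 in Celf1 AKO and 0.489, 0.422 and 0.600 in Flox control. The groups overlapped in this ratio (exact two-sided permutation p = 0.2, and 0.2 after adjustment over the 3 ratios compared).

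Slc6a8 (ENSMUSG00000019558, chrX:73673150-73682502, plus strand) encodes the sodium- and chloride-dependent transporter that takes creatine into cells. Its level was 27.3, 22.6 and 31.4 CPM in Celf1 AKO and 23.9, 24.9 and 20.5 CPM in Flox control. The groups overlapped, with Celf1 AKO replicate 2 below 2 of the controls. The log2 fold change was 0.23 (SE 0.15, edgeR adjusted p = 0.559), and its 95% interval ran from −0.13 to 0.59. Without Celf1 AKO replicate 3 it was 0.11. The ratio of uptake to synthesis messenger, Slc6a8 over Gatm in FPKM, was 0.952, 0.597 and 0.797 in Celf1 AKO and 1.42, 1.67 and 1.57 in Flox control. Slc6a8 was above Gatm in every control library and below it in every Celf1 AKO library (exact two-sided permutation p = 0.1, the smallest possible, and 0.2 after adjustment over the 3 ratios).

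Ckb (ENSMUSG00000001270, chr12:111669361-111672338, minus strand) encodes the brain-type creatine kinase, which moves phosphate between ATP and creatine. Its level was 25.0, 33.7 and 25.7 CPM in Celf1 AKO and 19.9, 25.1 and 17.9 CPM in Flox control. The groups met at a single pair, Celf1 AKO replicate 1 lying just under Flox control replicate 2. The means were 28.1 ± 4.81 and 21.0 ± 3.70 CPM (SD, n = 3 each). Its log2 fold change of 0.42 (SE 0.18) had an unadjusted p of 0.0454 and an adjusted p of 0.377 by edgeR. A processed pseudogene, Gm12892, matches Ckb at 96.8% identity over 1149 bases and is not among the genes analysed here, so how reads were shared between them is not known.

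Alpl (ENSMUSG00000028766, chr4:137741733-137796384, minus strand) encodes tissue-nonspecific alkaline phosphatase, which can hydrolyse phosphocreatine. Its level was 15.9, 6.94 and 20.3 CPM in Celf1 AKO and 16.2, 13.6 and 7.65 CPM in Flox control. Both groups spread widely, with a coefficient of variation of 47.3% in Celf1 AKO and 35.0% in Flox control. The log2 fold change was 0.21 (SE 0.41, edgeR adjusted p = 0.867). Its 95% interval in folds ran from 0.591 to 2.26. The sign turned to −0.13 without Celf1 AKO replicate 3 and to −0.05 without Flox control replicate 3.

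Atp2a2 (ENSMUSG00000029467, chr5:122453513-122502225, minus strand) encodes SERCA2, the calcium pump of the endoplasmic reticulum that calcium cycling in beige fat relies on. Its level was 238, 215 and 259 CPM in Celf1 AKO and 287, 278 and 335 CPM in Flox control, from 13082 to 21866 counts. Every Celf1 AKO library was below every control. The means were 237 ± 22.2 and 300 ± 30.5 CPM (SD, n = 3 each). On the log2 scale the difference was −0.34 (SE 0.13), and its 95% interval ran from −0.64 to −0.03. The unadjusted p was 0.0337 and the adjusted p 0.348 by edgeR, and the exact two-sided permutation test gave 0.1, the smallest possible. In the authors' FPKM the separation did not hold: Celf1 AKO replicate 3 was at 59.9 and Flox control replicate 1 at 59.8. The gene body overlaps 3 gene models of uncertain status and shares 362 bases at 99.2% identity with Gm30970, none of which is among the genes analysed here.

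**Figure D2:**
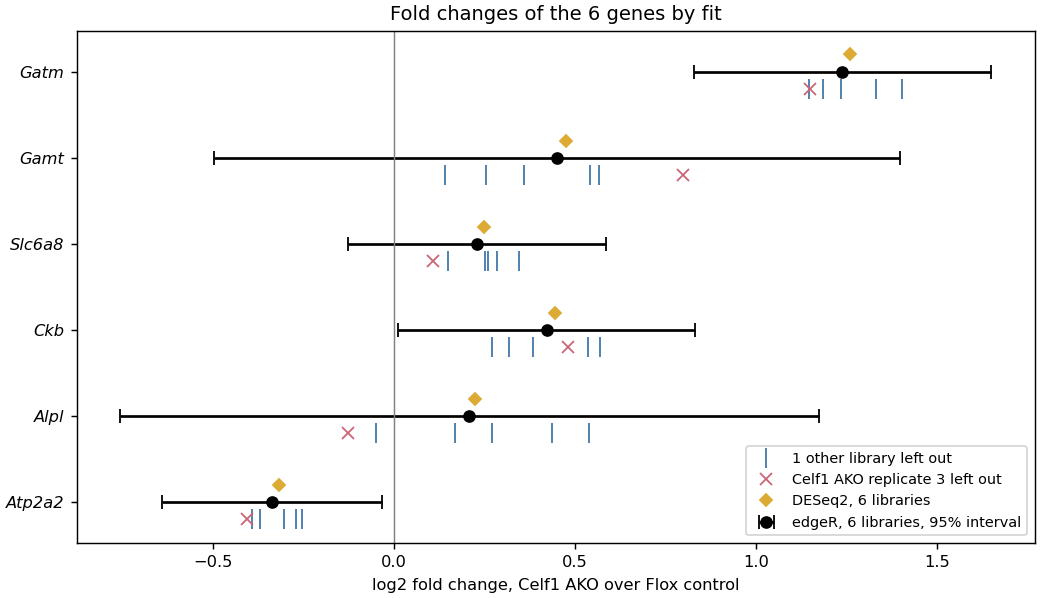
Log2 fold change of Celf1 AKO over Flox control for each of the 6 genes under the edgeR test, with 95% intervals, beside the value by DESeq2 and the values with each single library left out. The interval of Gatm lies above 0 and that of Atp2a2 below it, that of Ckb barely clears 0, and the other intervals span it.

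Per length, Atp2a2 was by far the most abundant of the set, at 67.0 ± 8.84 FPKM in Flox control and 52.7 ± 7.41 FPKM in Celf1 AKO (SD, n = 3 each). Ckb came next in both groups, at 14.3 ± 2.97 FPKM in the controls. Gamt (7.70 ± 1.85 FPKM), Slc6a8 (5.84 ± 0.626 FPKM), Alpl (4.91 ± 1.55 FPKM) and Gatm (3.77 ± 0.315 FPKM) followed in Flox control. Of these neighbours, Atp2a2 and Ckb were apart, and so were Ckb and Gamt, while Gamt and Slc6a8, Slc6a8 and Alpl, and Alpl and Gatm had control libraries that overlapped. Gatm was last in Flox control and the fourth in Celf1 AKO, at 8.86 ± 1.54 FPKM, ahead of Slc6a8 (6.83 ± 1.43 FPKM) and Alpl (5.76 ± 2.92 FPKM). In Celf1 AKO, the libraries of Gatm overlapped those of Gamt (10.3 ± 4.74 FPKM), of Slc6a8 and of Alpl.

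**Figure D3:**
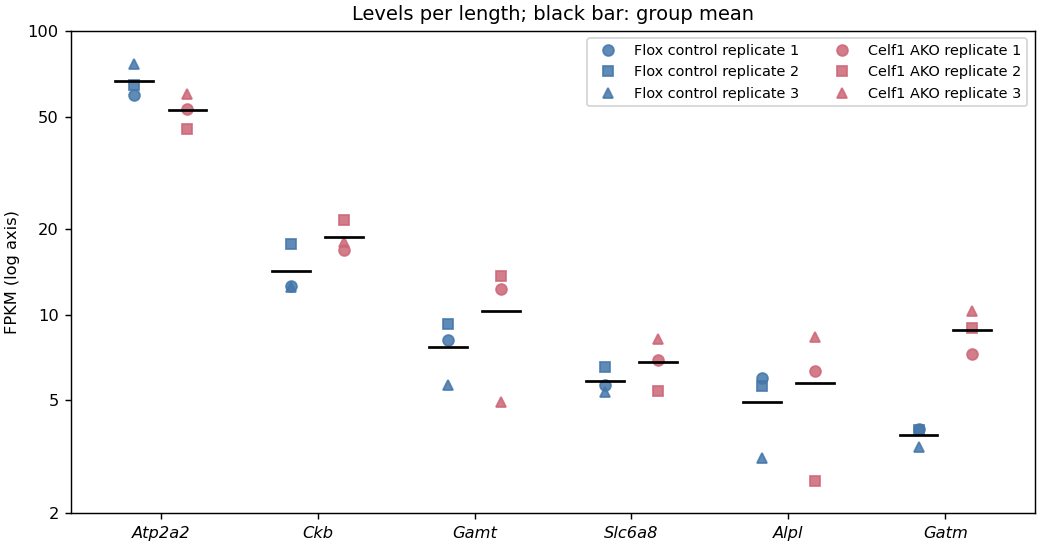
The authors' FPKM of the 6 genes in each library, on a log axis, with Flox control in blue and Celf1 AKO in red. Atp2a2 lies above all the others in every library, and Gatm is the lowest by mean in Flox control and the fourth in Celf1 AKO.

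A list of 8 other genes held creatine kinases, creatine transporters, a phosphatase, and the adrenergic receptor and G protein subunit that have been placed upstream of Ckb in fat. Of these 8, 5 were tested (Ckm, Ckmt1 and Ckmt2, which encode other creatine kinases, are not among the genes analysed here), and 0 of the 5 were called by edgeR, with a median log2 fold change of 0.04 that ran from −0.14 (without Flox control replicate 1) to 0.19 (without Celf1 AKO replicate 1). Adra1a, the alpha-1A adrenergic receptor, which does not itself act on creatine, was at 4.90, 5.63 and 7.76 CPM in Celf1 AKO and at 14.1, 18.3 and 17.4 CPM in Flox control. Its groups were far apart (log2 fold change −1.44, SE 0.22, edgeR adjusted p = 0.215), and it was called lower by DESeq2 (adjusted p = 8.35e-07) and by edgeR without Celf1 AKO replicate 3 (adjusted p = 0.0212). Gnaq, the G protein subunit that such receptors couple to, was at a log2 fold change of 0.14. Slc16a12, a creatine transporter (0.04), Slc16a9 (−0.24) and Phospho1, a phosphatase (0.16), had overlapping groups, as did Gnaq, and without Celf1 AKO replicate 3 they were at −0.27, −0.08 and −0.04.

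The supply of precursors and methyl groups for creatine gave differences of both signs. Of 14 genes, all tested, 0 were called by edgeR, and at an unadjusted p under 0.05 there were 3 higher and 2 lower, beside 6.75% and 6.17% of all tested genes. The median was 0.11, and it was −0.04 when Celf1 AKO replicate 3 was left out. With Flox control replicates 2 and 3 left out in turn it was 0.07 and 0.02, and it was at most 0.18 with any other left out. Shmt1, a serine hydroxymethyltransferase that makes glycine, was at 5.10, 5.53 and 7.36 CPM in Celf1 AKO and 11.4, 12.2 and 14.8 CPM in Flox control, a log2 fold change of −1.09 (SE 0.21, edgeR adjusted p = 0.227). DESeq2 called it lower (adjusted p = 0.000251), as did edgeR without Celf1 AKO replicate 3 (log2 fold change −1.27, adjusted p = 0.0281). Mat2a, which makes the methyl donor S-adenosylmethionine, was at 1102, 964 and 693 CPM in Celf1 AKO and 634, 587 and 579 CPM in Flox control. Its lowest Celf1 AKO library was again replicate 3, and the log2 fold change of 0.62 (SE 0.18) had an edgeR adjusted p of 0.293, or 0.0366 without that library. Mat2b, the regulatory partner of Mat2a, was on the other side at −0.33 (SE 0.10, edgeR adjusted p = 0.289). Slc7a2, a carrier of arginine, was at 8.12, 11.5 and 22.7 CPM against 7.96, 6.21 and 5.48 CPM (log2 fold change 1.11, SE 0.37, edgeR adjusted p = 0.314, and 0.58 without Celf1 AKO replicate 3). Its lowest Celf1 AKO library lay just above the highest control.

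Among the other calcium pumps and their regulators, 6 of 11 genes were tested and 0 were called by edgeR; 1 was higher (Mrln) and 1 lower (Hax1) at an unadjusted p under 0.05, beside 6.75% and 6.17% of all tested genes. The median of 0.14 had no firm sign: it was −0.005 when Celf1 AKO replicate 3 was left out, 0.08 and 0.03 when Flox control replicates 1 and 3 were left out in turn, and −0.06 with a minimum of 1 CPM in 3 libraries. Atp2a3, which encodes SERCA3, was at 16.4, 22.3 and 31.3 CPM in Celf1 AKO and 17.7, 22.7 and 18.5 CPM in Flox control (log2 fold change 0.25, edgeR adjusted p = 0.683, and −0.02 without Celf1 AKO replicate 3). Atp2a2 made up 93.7, 90.8 and 89.5% of the FPKM of both pumps in Celf1 AKO and 94.3, 92.6 and 94.9% in Flox control. Between Atp2a2 and Atp2a3, Atp2a2 was thus the main messenger in every library. These shares overlapped between groups (exact two-sided permutation p = 0.2, and 0.2 after adjustment over the 3 ratios). Atp2a1, a further SERCA gene of the list, is not among the genes analysed here, so its share is not known. Hax1, which encodes a protein that binds SERCA2, was at 32.8, 38.1 and 36.6 CPM against 44.4, 41.1 and 42.2 CPM, without overlap (log2 fold change −0.25, edgeR adjusted p = 0.386). S100a1, a calcium sensor, was also without overlap on the lower side (−0.17, edgeR adjusted p = 0.544), as were 9.51% of all tested genes. Pln, the pump inhibitor phospholamban, stayed under 1 CPM in every library (0.352 to 0.819 CPM). Mrln, which encodes the muscle micropeptide myoregulin, was at 0.218, 0.197 and 1.01 CPM in Celf1 AKO and 0.107 to 0.148 CPM in Flox control, and its log2 fold change of 1.92 was 0.72 without Celf1 AKO replicate 3, its highest library.

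For calcium release and storage, 19 of 23 genes were tested and 0 were called by edgeR; 4 were higher and 0 lower at an unadjusted p under 0.05, beside 6.75% and 6.17% of all tested genes. The median was 0.07, and with single libraries left out it ran from 0.02 (without Flox control replicate 3) to 0.14 (without Celf1 AKO replicate 3). Itpr3, a calcium release channel, was at 17.7, 19.5 and 23.7 CPM in Celf1 AKO and 13.8, 16.5 and 14.5 CPM in Flox control (log2 fold change 0.44, SE 0.15, edgeR adjusted p = 0.322). Stim2, a sensor of the store, was at 31.3, 36.8 and 31.0 CPM against 24.2, 27.9 and 23.2 CPM (0.40, SE 0.13, edgeR adjusted p = 0.301). Both were without overlap on the higher side, as were 4 genes of the list in all, beside 7.81% of all tested genes. Of the 19 log2 fold changes, 11 were positive and 8 were negative, the sign of Atp2a2. Jph2, a protein that joins muscle membranes, was at 4.79, 4.22 and 36.4 CPM against 3.43, 3.90 and 1.19 CPM, so that 1 library carried its log2 fold change of 2.41 (0.66 without it). Ryr1, the skeletal muscle release channel, is not among the genes analysed here.

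Of 9 genes of glycerolipid cycling and other routes that do not need UCP1, 0 were called by edgeR, 1 was lower at an unadjusted p under 0.05 (6.17% of all tested genes), and the median was −0.07, or −0.12 to −0.01 with single libraries left out. Gk, the glycerol kinase that returns glycerol to triglyceride synthesis, was at 36.2, 19.0 and 86.0 CPM in Celf1 AKO and 158, 150 and 212 CPM in Flox control. Its groups were well apart (log2 fold change −1.88, SE 0.49, edgeR adjusted p = 0.260), and DESeq2 called it lower (adjusted p = 0.00409), as did edgeR without Celf1 AKO replicate 3 (adjusted p = 0.0255). Slc25a5, an ADP/ATP carrier, was at −0.30 and Pck1, which feeds glyceroneogenesis, at 0.24, both without overlap (edgeR adjusted p = 0.430 and 0.516). Among all tested genes, 9.51% were lower and 7.81% higher without overlap.

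**Figure D4:**
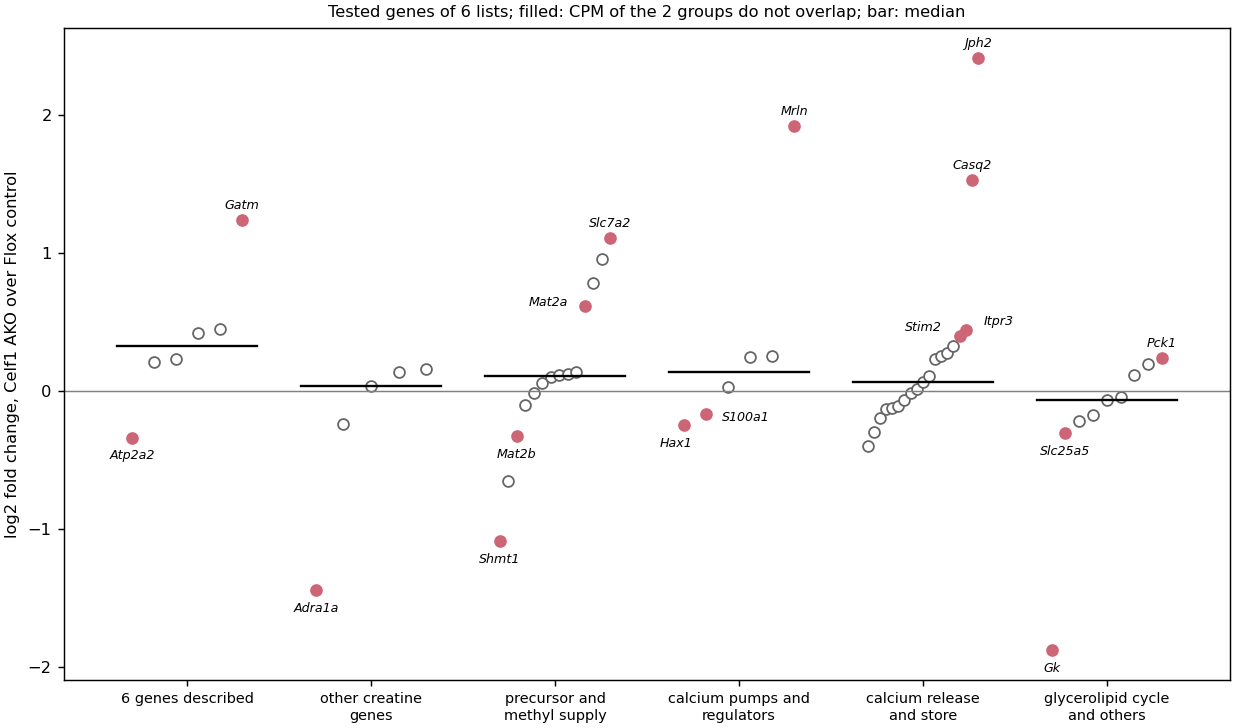
Log2 fold change (Celf1 AKO over Flox control) of each tested gene in the set of 6 and in 5 lists of related genes, ordered by value within a list; filled points have CPM that do not overlap between the groups, and bars are list medians. Adra1a, Shmt1 and Gk are the lowest named points, and the list medians lie between −0.07 and 0.33.

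The tissue is a mixture, and in bulk RNA fewer cells of a type and less RNA per cell cannot be told apart. Mature adipocyte markers (10 tested, led by Fabp4 and Lpl) had a summed level of 51300 to 64130 CPM in Celf1 AKO and 56820 to 62760 CPM in Flox control, overlapping. Beige adipocyte markers were led by Ucp1 and Cidea. Their summed level was 208 to 467 CPM in Celf1 AKO and 904 to 985 CPM in Flox control. Of the 10, 9 had a negative log2 fold change, and 6 were lower without overlap. Ppargc1a alone had the other sign (log2 fold change 0.85), and its groups overlapped. It was at 186, 80.4 and 74.7 CPM in Celf1 AKO and 79.3, 52.4 and 57.4 CPM in Flox control. Endothelial markers were summed at 1136 to 1334 CPM against 664 to 988 CPM, with 6 of 10 higher without overlap, and Schwann cell markers at 562 to 815 CPM against 354 to 438 CPM, with 9 of 10. Over all tested genes, 7.81% were higher and 9.51% lower without overlap. The summed levels of these 3 lists did not overlap between the groups. Of their genes, edgeR called 0, and without Celf1 AKO replicate 3 it called 1 in each list (1.43% of all genes higher, 1.76% lower). DESeq2 called 3 beige markers lower, and 3 endothelial and 6 Schwann cell markers higher, beside 0.926% of its genes lower and 2.12% higher. The part of these lists in the values of Gatm and Atp2a2 was not tested. The muscle marker Acta1 was at 23.1 and 70.6 CPM in the first 2 Celf1 AKO libraries, 1039 CPM in Celf1 AKO replicate 3, and 33.5 to 75.2 CPM in the controls; of 12 skeletal muscle markers, 10 are not among the genes analysed here. Muscle expresses Atp2a2 too, and among the Celf1 AKO libraries Atp2a2 was highest in that one. The part of muscle RNA in its level was not tested. Without the library, the log2 fold change of Atp2a2 was −0.41. Gatm was also highest in that library, and was at 1.15 without it.

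As a description of profiles over the 6 libraries, the genes most like Gatm by Pearson correlation of log2(CPM + 0.5), among 9933 other protein-coding genes with a mean CPM of at least 5, were Cdk11b (r = 0.997), Fxyd6 (0.997) and Arf2 (0.996), and 48 genes were over 0.95. Those most like Atp2a2 were Nabp1 (0.995), Dhx9 (0.991) and Zfp597 (0.991), and 75 genes were over 0.95. The correlation does not measure the size of a difference. Log2 fold changes were 0.20 for Cdk11b, 0.95 for Fxyd6 and 0.37 for Arf2, against 1.24 for Gatm. Nabp1, Dhx9 and Zfp597 were at −0.97, −0.33 and −0.73, against −0.34 for Atp2a2. The points of these correlations share their libraries and scaling.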

How the data were processed

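The members and lists were chosen with earlier results of these data known. The authors deposited raw read counts (whole numbers per Ensembl gene) and FPKM for the same genes, with 1 column per library per the file headers. HISAT2, RSEM 1.3.1, GRCm38 and mm10 are named, with no role, per the submitters' processing notes. No source used here gives the annotation, strand setting or gene filter, and reads from overlapping genes on opposite strands cannot be told apart. Per the labels' protocols, mRNA was isolated from Trizol-extracted RNA.

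Of the gene identifiers, 16528 matched GENCODE M21 (GRCm38) and 99 did not. Counts were tested with edgeR 4.0.16 in R 4.3.3 (quasi-likelihood, TMM, default expression filter, robust spread) with genotype as the sole term over the 6 libraries. Adjusted p-values (Benjamini-Hochberg over all tested genes) under 0.05 were called. Standard errors were taken from the fold change and its F statistic, and 95% intervals from the same. DESeq2 1.42.0, limma 3.58.1 (voom, and log2 FPKM with offsets), other scalings and filters, a replicate block and the removal of each library were alternatives. Exact two-sided permutation tests of single genes and ratios used SciPy 1.17.1. No 2 libraries agreed within sampling noise: the lowest chi-square per degree of freedom was 48.0.

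Counts were simulated for the 16366 tested genes of this comparison, with 50 genes changed per fold size, and 16210 passed the edgeR filter. Of the changed genes, edgeR called 8% at 1.5-fold, 72% at 2-fold, 98% at 4-fold and 100% at 8-fold, with 8 unchanged genes called. DESeq2 on 14779 genes called 18%, 90%, 98% and 100%, with 42 unchanged genes called. No simulated library stood apart from its group as Celf1 AKO replicate 3 did, and changed genes were drawn only above a minimum mean level. These rates are therefore not those of the tests on the real libraries, and a gene not called there may still have changed. Near copies were sought with BLAST at 90% identity over 100 bases.

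Named genes followed a rule: the 6 genes, Celf1, Ucp1, up to 4 tested genes of smallest p with mean CPM of at least 1 per pathway list, any gene of the creatine and calcium pump lists, the 2 most abundant marker genes, and the 3 most similar profiles. Ryr1 was named outside it, after its absence was seen, and so was Ppargc1a, for its sign among the beige markers. Of the other marker lists, median log2 fold changes were 2.46 for neutrophil (1.00 without Celf1 AKO replicate 3) and 1.69 for mammary epithelial markers (0.42 when Celf1 AKO replicate 1 was left out, 0.91 when Flox control replicate 3 was). Those of smooth muscle and pericyte (0.25), macrophage (−0.10), preadipocyte (−0.11) and lymphocyte markers (0.05) each changed sign with 1 or more single libraries left out. In each of these lists edgeR called 0 genes.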

Additional observations from a re-analysis of the deposited data

How the results depend on the processing

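With 3 libraries per group the exact permutation test cannot go below 0.1, and 1 library can decide a call. The count of called genes, 2 with the reported settings, was 0 with library size only, with limma-voom and with limma on log2(FPKM + 1) or log2(FPKM + 0.1). It was 1 with log2(FPKM + 1) and no minimum, 10 with voom quality weights, 496 with DESeq2 (345 higher, 151 lower) and 0 to 527 with single libraries left out, the 527 without Celf1 AKO replicate 3 (237 higher, 290 lower). The cause was not tested. Gatm passed the threshold in 2 of 19 alternatives: DESeq2 (log2 fold change 1.26, adjusted p = 5.70e-07) and without Celf1 AKO replicate 3. Its log2 fold change was 1.15 to 1.40 with single libraries left out and 1.04 to 1.26 otherwise. Alpl changed sign with voom quality weights (−0.065), and ran from −0.13 to 0.54 with single libraries left out, negative without Celf1 AKO replicate 3 or Flox control replicate 3. Gamt (0.14 to 0.80), Ckb (0.27 to 0.57), Slc6a8 (0.11 to 0.34) and Atp2a2 (−0.41 to −0.26, edgeR, DESeq2 and limma adjusted p from 0.121 to 0.836) kept their sign and stayed above the threshold in all 19. Of 319 list medians recomputed, 25 moved by over 1 SD, and 4 could not be computed. The replicate numbers are not said to pair the libraries, and 3 libraries per group are too few to show whether they do. Deviations of same-numbered libraries correlated at 0.07, −0.01 and 0.27, and Celf1 AKO replicate 2 was closest to Flox control replicate 1 (0.30). A fit with the replicate block called 12 genes (9 higher, 3 lower) and put Gatm at 1.23 (adjusted p = 0.114 by edgeR).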
